A study of Mus musculus with 27 samples.

Results

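DNA methylation was compared between hepatocytes of A/J and of NOD/ShiLtJ mice, 2 albino inbred laboratory strains, in 3 samples of each strain. These 6 samples are part of a series of 27 samples from 9 inbred strains. All 6 came from the liver of female mice aged 12 weeks, none had a treatment or an engineered allele by the labels, and the strain is what separates the groups. A/J is a widely used laboratory strain, and NOD/ShiLtJ, the nonobese diabetic mouse, develops autoimmune diabetes spontaneously. The labels number the samples as biological replicates and name no animals, so p-values measure the spread between these samples.

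DNA methylation in mammals sits mainly on the cytosine of a CpG, a C followed by a G, and is copied when DNA is replicated. Starts of active genes that are rich in CpGs are mostly free of it, while gene bodies and the DNA between genes are mostly methylated. Inbred strains differ in DNA sequence, and methylation at a given place can differ with it, both because a CpG may exist in 1 strain only and because nearby sequence can affect whether a CpG is methylated. Albino laboratory strains share an old mutation of Tyr, the gene for the pigment enzyme tyrosinase.

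Methylation was measured by reduced representation bisulfite sequencing (RRBS), which reads CpG-rich fragments cut by the enzyme MspI at CCGG after bisulfite has turned unmethylated cytosines into a base read as T. Each file lists single positions with the percentage of reads that were methylated. The read depth behind a percentage is unknown, so no interval for a single value can be given. A position was used when it was listed in all 6 files, which held for 2363773 of the 3779238 positions listed in any of them (62.5%). Of these, 671320 were not listed in all 27 samples of the series. Positions were averaged in tiles, fixed windows of 1 kb, where a tile held 5 or more of them. This gave 104349 tiles, of which 83871 had a mean over the 6 samples at least 2.5 points from both 0 and 100% and were tested. The 6 samples listed between 2904787 and 3034139 positions each. Tile levels correlated between samples of the same strain at 0.972 to 0.975 in Pearson's r over 6 pairs, and between strains at 0.960 to 0.966 over 9 pairs, across tiles, which are not independent.

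The cell type named in the labels could be checked only through methylation. Of 10 hepatocyte marker genes 6 had at least 3 positions at their start, with levels from 0.173 to 40.2% in A/J (median 4.85%) and from 0.440 to 72.4% in NOD/ShiLtJ (median 2.26%). The starts of 3 stellate cell markers had medians of 2.74% and 3.22%, and those of 3 bile duct cell markers 27.8% and 22.7%. Of 2 endothelial markers the lower start stood at 3.04% in A/J and 3.12% in NOD/ShiLtJ, and the higher at 93.4% and 94.0%. Markers of macrophages and of lymphocytes had no start with 3 positions. The share of other liver cells in each sample therefore was not tested.

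The windows around the starts of Gm8773 and Sgo2b, nearly unmethylated at listed CGs in A/J, and of B3galt4, nearly so in NOD/ShiLtJ, are shown. Their listed CGs carry some of the clearest differences. Each line gives 250 bases before to 50 bases after the start, 5′ to 3′, from RefSeq on GRCm38.p6, with capitals on the CGs that were listed in all 6 samples. All of these windows hold the MspI site CCGG, a motif that reads the same on both strands, as do 52.8% of all 32851 windows of this length. The windows lie at chr5:5573754-5574053 on the plus strand (Gm8773), chr8:63952121-63952420 on the minus strand (Sgo2b) and chr17:33951439-33951738 on the minus strand (B3galt4). The sequence is the reference's, from C57BL/6J, and neither strain's own sequence was used here.
Gm8773: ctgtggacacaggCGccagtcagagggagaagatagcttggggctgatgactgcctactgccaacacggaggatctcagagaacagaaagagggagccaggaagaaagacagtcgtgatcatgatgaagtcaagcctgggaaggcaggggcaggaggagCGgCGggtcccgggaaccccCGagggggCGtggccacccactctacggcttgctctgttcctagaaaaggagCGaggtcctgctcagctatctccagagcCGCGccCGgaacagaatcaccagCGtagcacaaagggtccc
Sgo2b: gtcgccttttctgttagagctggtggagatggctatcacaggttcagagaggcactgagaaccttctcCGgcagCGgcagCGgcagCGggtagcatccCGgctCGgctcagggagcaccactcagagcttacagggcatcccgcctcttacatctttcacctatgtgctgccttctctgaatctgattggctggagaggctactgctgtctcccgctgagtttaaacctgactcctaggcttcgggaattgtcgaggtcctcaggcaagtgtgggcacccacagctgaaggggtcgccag
B3galt4: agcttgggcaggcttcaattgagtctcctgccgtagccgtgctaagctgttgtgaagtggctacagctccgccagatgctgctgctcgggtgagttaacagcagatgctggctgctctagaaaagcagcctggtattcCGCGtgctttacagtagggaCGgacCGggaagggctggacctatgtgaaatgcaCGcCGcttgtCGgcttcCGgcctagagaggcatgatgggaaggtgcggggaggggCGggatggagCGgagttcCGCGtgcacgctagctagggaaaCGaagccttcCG

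Gm8773 is a predicted protein-coding gene. In its window 10 of 14 CGs were listed, on 20 positions counting both strands. Their mean level was 3.66, 4.95 and 3.30% in the 3 A/J samples and 74.8, 82.2 and 74.5% in the 3 NOD/ShiLtJ samples, so every NOD/ShiLtJ sample was far above every A/J sample. Within 500 bp of the start 30 positions were listed, and at all 30 the strains did not overlap. These positions make up tiles picked for their large difference, and neighbouring positions are not independent, so the count is no separate evidence. The share of such positions over all listed positions is not given here. The counts for Sgo2b and B3galt4 below carry the same limit. The differing stretch ran from 269 bp before the start to 484 bp after it, with A/J means between 0 and 29.4% and NOD/ShiLtJ means between 50.7 and 95.2% at single positions. The lowest NOD/ShiLtJ positions, 87 and 88 bp before the start, still stood at 51.2 and 50.7%.

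Sgo2b is a relative of shugoshin, which guards the cohesion of sister chromatids, the copies of a replicated chromosome, in cell division. Its window had 6 of 12 CGs listed, on 11 positions. They averaged 11.0, 4.03 and 10.9% in A/J and 63.2, 68.6 and 64.4% in NOD/ShiLtJ. All 14 positions listed within 500 bp of the start were higher in every NOD/ShiLtJ sample than in any A/J sample.

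B3galt4 encodes a galactosyltransferase that makes gangliosides, and lies in the major histocompatibility region of chromosome 17. It was chosen after its values were seen, because its window held the most listed positions among the windows of called tiles near a gene start. In the window 14 of 20 CGs were listed, on 26 positions, averaging 48.9, 53.1 and 52.3% in A/J and 3.26, 1.39 and 3.50% in NOD/ShiLtJ. Here NOD/ShiLtJ was nearly unmethylated and A/J was near the middle of the scale. Of 62 positions within 500 bp of the start, 60 were higher in A/J and the strains did not overlap at 52.

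**Figure D1:**
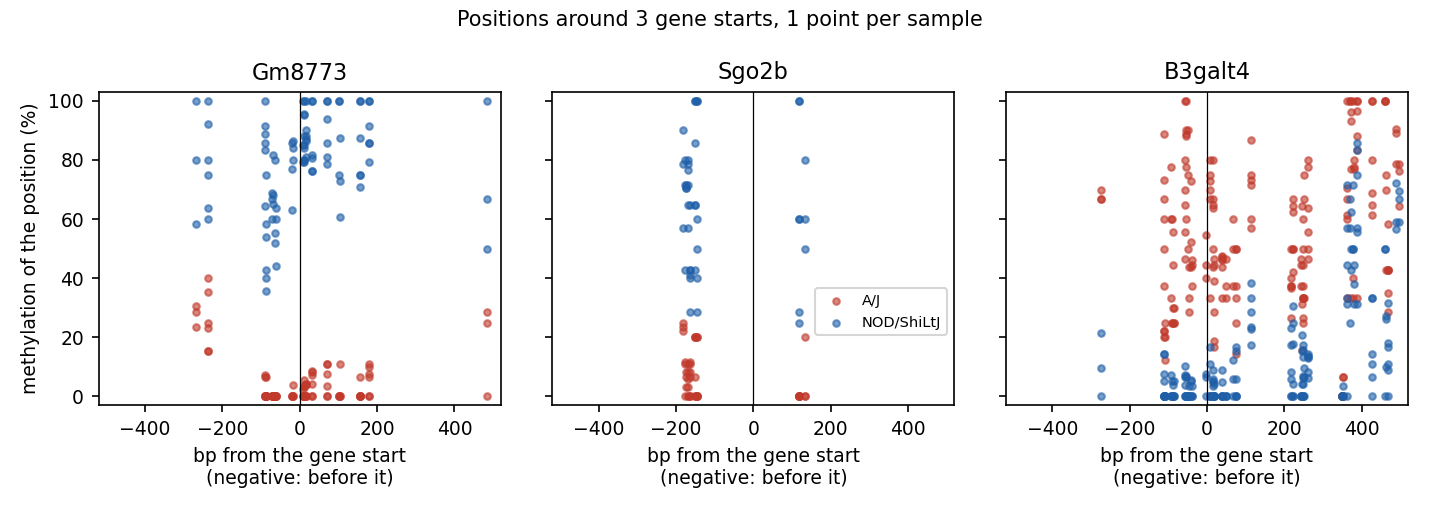
Methylation (%) of each position listed in all 6 samples against its distance in bp from the start of Gm8773, Sgo2b and B3galt4, with 1 point per sample, A/J red and NOD/ShiLtJ blue. The strains do not overlap at any of the 30 and 14 positions of the first 2 genes, and at 52 of 62 positions of B3galt4. The genes were chosen from called tiles, so these counts are no separate evidence.

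Over all shared positions methylation was slightly higher in A/J. The 3 A/J samples averaged 38.5, 38.4 and 38.4% and the 3 NOD/ShiLtJ samples 37.8, 37.8 and 37.9%. The groups did not overlap, and their means of 38.5 ± 0.0563% (SD, n = 3) and 37.8 ± 0.0938% (SD, n = 3) differed by 0.632 points. An exact two-sided permutation test gave p = 0.1, the smallest value that 3 samples against 3 can give, so no single value of this kind can pass 0.05. The same direction and the same smallest p held on the autosomes, with a difference of 0.598 points, and on the X chromosome, with 56.6 ± 0.248% against 54.6 ± 0.289% (SD, n = 3 each). In these female samples 38.2% of X positions in A/J and 36.0% in NOD/ShiLtJ stood between 20 and 80%, against 12.2% of autosomal positions in both strains, where the groups overlapped (exact permutation p = 0.9). Across the tested tiles the median difference was 0.56 points and 57.8% were higher in A/J.

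Few single tiles were called different, and the rule for a call admits only large differences. A tile was called different at an adjusted p under 0.05 (limma on log2 ratios, Benjamini-Hochberg over all tested tiles) with a difference of at least 25 points. This held for 265 of 83871 tiles, 0.316% of those tested. The level was higher in A/J in 172 tiles (0.205%) and higher in NOD/ShiLtJ in 93 (0.111%), so that 64.9% of the called tiles were higher in A/J. In all 265 the samples of the strains did not overlap. The median size was 36.7 points, and 55 tiles differed by 50 points or more, 36 of them higher in A/J. In 8 tiles A/J averaged at least 80% and NOD/ShiLtJ at most 20%, and in 5 tiles the reverse held. Among tiles called in either direction the median level of the higher strain was 74.9% (A/J) or 72.9% (NOD/ShiLtJ), and that of the lower strain 27.7% (NOD/ShiLtJ) or 26.8% (A/J).

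The number called is bounded by the number of samples. Leaving out A/J replicate 1, 2 or 3 left 59, 66 and 70 tiles called, and leaving out NOD/ShiLtJ replicate 1, 2 or 3 left 74, 90 and 83. The same 46 tiles were called with any sample left out, and 137 were called in none of those fits. The adjusted p alone passed in 419 tiles (0.5%). At an unadjusted p under 0.05 there were 9012 tiles (10.7%), and 548 tiles (0.653%) differed by at least 25 points with no overlap between the strains, 368 of them higher in A/J.

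**Figure D2:**
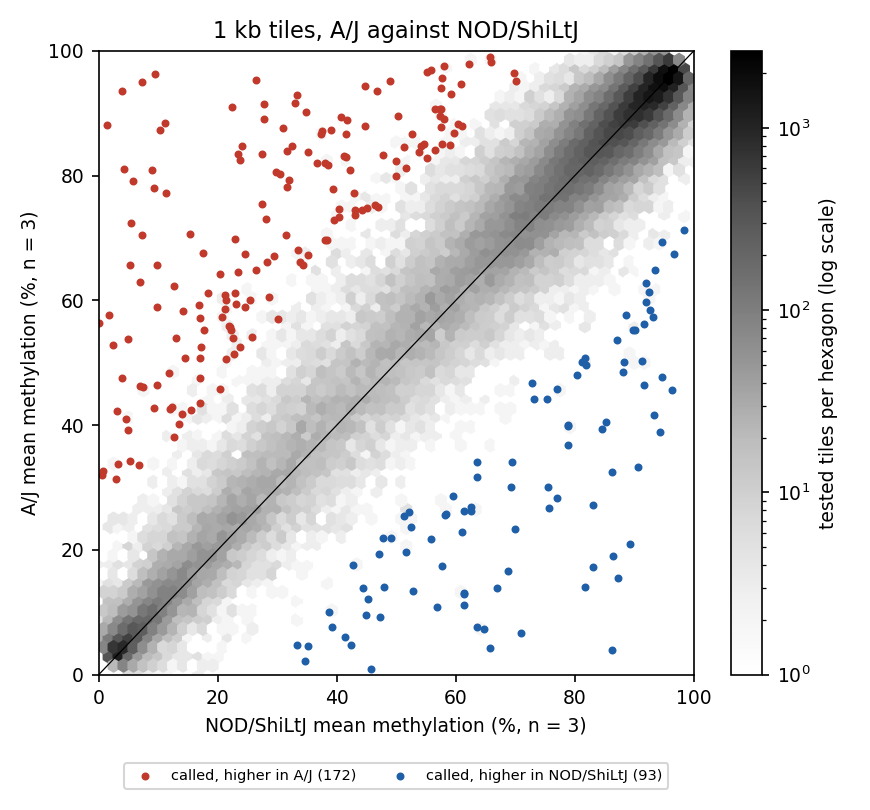
Mean methylation (%) of each tested 1 kb tile in A/J (vertical axis, n = 3) against NOD/ShiLtJ (horizontal axis, n = 3), with grey hexagons for the number of tiles on a log scale and points for called tiles. The 172 red points lie above the line of equality and the 93 blue points below it, spread over the middle of the scale.

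By position, called tiles were spread over genes and the DNA between them. Within 1 kb of the start of a protein-coding gene 24 of 7358 tested tiles were called (0.326%, against 0.316% over all tested tiles). Of these 13 were higher in A/J and 11 higher in NOD/ShiLtJ. Protein-coding genes farther from any start held 139 of 41848 tiles called (0.332%), of which 101 were higher in A/J. Tiles over no gene of the RefSeq table held 67 of 25963 (0.258%), and tiles in other genes or pseudogenes alone 28 of 6421 (0.436%). The X chromosome had 2 called tiles of 2780 (0.0719%) and the autosomes 263 of 81080 (0.324%). Among autosomes the share ran from 0.158% on chromosome 18, with 4 tiles all higher in A/J, to 0.677% on chromosome 17, with 26 tiles. A tile with a mean level under 10% or over 90% cannot reach 25 points, and 0 of 7789 and 0 of 35102 such tiles were called. At mean levels of 25 to 75% it was 227 of 13948 (1.63%). The median level of tested tiles was 15.6% near protein-coding starts and 89.7% in protein-coding genes farther from starts. The shares by location are therefore not matched by level. No test of these shares was made, and they describe this pair only.

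Among tiles in protein-coding genes, the largest difference in favour of A/J lay in Crocc, which encodes rootletin, a protein of the rootlet that anchors cilia. The tile at chr4:141025001-141026000 averaged 46 positions and stood at 86.5, 88.0 and 87.3% in A/J and at 9.6, 11.5 and 9.9% in NOD/ShiLtJ. All A/J samples were near full methylation and all NOD/ShiLtJ samples near none, a difference of 77.0 points (limma adjusted p = 0.00069). Other strains stood on either side: CAST/EiJ at 88.1% and C57BL/6J at 74.1%, against 14.0% in 129S1/SvImJ, 14.5% in DBA/2J, 12.1% in NZO/HlLtJ, 11.5% in WSB/EiJ and 32.9% in PWK/PhJ. Another 8 positions of this tile were listed in all A/J and no NOD/ShiLtJ sample, and 6 in all NOD/ShiLtJ and no A/J sample.

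Zfp872, a zinc finger gene of chromosome 9, had a called tile before its start and another that holds the start. The tile before it, chr9:22187001-22188000, stood at 98.2, 93.2 and 97.5% in A/J and at 11.9, 10 and 6.7% in NOD/ShiLtJ, a difference of 86.8 points (limma adjusted p = 0.00175). The next tile stood at 78.9, 89.2 and 75.2% against 2.7, 5.6 and 4.3%, a difference of 76.9 points (limma adjusted p = 0.00288). At their listed positions both tiles were mostly methylated in A/J and mostly free of methylation in NOD/ShiLtJ. In a window around the Zfp872 start, with the bounds used above for the sequences, 0 of 17 CGs were listed in every sample. The levels of both tiles thus come from positions outside that window, and the start itself was not measured. Several other strains were near A/J in the first tile and near NOD/ShiLtJ in the second: C57BL/6J stood at 97.8 and 9.66%, 129S1/SvImJ at 96.5 and 21.3%, DBA/2J at 95.7 and 14.8%, and WSB/EiJ at 87.5 and 7.52%. NZO/HlLtJ was high in both (96.7 and 76.5%), CAST/EiJ was lower (35.6 and 3.11%), and PWK/PhJ, at 96.3% in the first, had no level in the second. Zinc finger genes occur in clusters of similar copies, and how reads were shared among copies is not given in the sources used here.

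Syne4, which encodes a nesprin of the nuclear envelope, starts within Alkbh6, a gene of the AlkB dioxygenase family on chromosome 7. In a window around the Syne4 start, with the bounds used above for the sequences, 0 of 7 CGs were listed in every sample. The tile levels here thus come from positions outside that window, and the start itself was not measured. The tile at chr7:30314001-30315000 stood at 73.9, 77.6 and 85.7% in A/J and at 6.7, 8.3 and 2.4% in NOD/ShiLtJ, a difference of 73.2 points (limma adjusted p = 0.00418). The tile before it stood at 70.4, 66.9 and 35.6% against 4.0, 0.0 and 1.1%. A/J replicate 3 was lower than the other A/J samples there, though still above all NOD/ShiLtJ samples. That tile's difference of 55.9 points (limma adjusted p = 0.0238) was called without A/J replicate 3 and lost with any other sample left out, at adjusted p from 0.0194 to 0.110 over the 6 fits. Its call was also lost with an offset of 1 point in the log2 ratio and on the percent scale.

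Sox5, a transcription factor of cartilage and nerve development, stood at 76.7, 83.9 and 82.3% in A/J and at 8.3, 4.8 and 13.7% in NOD/ShiLtJ in 1 tile at chr6:144457001-144458000. This was 72.0 points (limma adjusted p = 0.00399) from 6 positions. Skap1, an adaptor protein of T cell signalling, differed by 68.7 points and B4galnt1, an enzyme of ganglioside synthesis, by 67.1 points from 20 positions. B4galnt1 was low in NOD/ShiLtJ alone: it stood at 1.8, 8.4 and 5.9% there, at 72.4 ± 4.37% (SD, n = 3) in A/J while the other 7 strains ranged from 51 to 69%. The adjoining tile, over B4galnt1 and Slc26a10, differed in the same direction by 34.0 points.

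Hspg2 encodes perlecan, a large proteoglycan of basement membranes. Adjacent tiles at chr4:137558001-137560000 stood at 93.3, 86.2 and 94.8% and at 83.9, 83.2 and 87.3% in A/J. In NOD/ShiLtJ they stood at 23.2, 29 and 30.9% and at 21.1, 27.7 and 23.6%. The differences of 63.7 and 60.7 points were called with any sample left out, at limma adjusted p up to 0.0461. Over these tiles DBA/2J, CAST/EiJ, PWK/PhJ and WSB/EiJ stood at 90 to 96%, and 129S1/SvImJ, C57BL/6J and NZO/HlLtJ at 26 to 34%, so the strains fell near the A/J level or near the NOD/ShiLtJ level.

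Cat encodes catalase, which breaks down hydrogen peroxide in peroxisomes and is abundant in hepatocytes. A tile in the gene at chr2:103476001-103477000, from 7 positions, stood at 92.9, 76.8 and 81.0% in A/J and at 16.7, 25.8 and 28.0% in NOD/ShiLtJ. The strains were 60.04 points apart (limma adjusted p = 0.022), and the call was lost with any of the 6 samples left out, at adjusted p between 0.0541 and 0.0979. The call in Cat was also lost with an offset of 1 point in the log2 ratio. Zfp978, in a cluster of zinc finger genes on chromosome 4, stood at 95.1, 94.6 and 96.2% against 14.9, 26 and 38.4%. It held 31 positions listed in A/J and in no NOD/ShiLtJ sample, the call was lost without A/J replicate 1, 2 or 3 at adjusted p up to 0.0541, and reads of similar copies may be mixed there. Gm11213, a predicted gene, differed by 49.8 points in a tile near its start, and that call held only without NOD/ShiLtJ replicate 3, at adjusted p from 0.0340 to 0.0760.

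**Figure D3:**
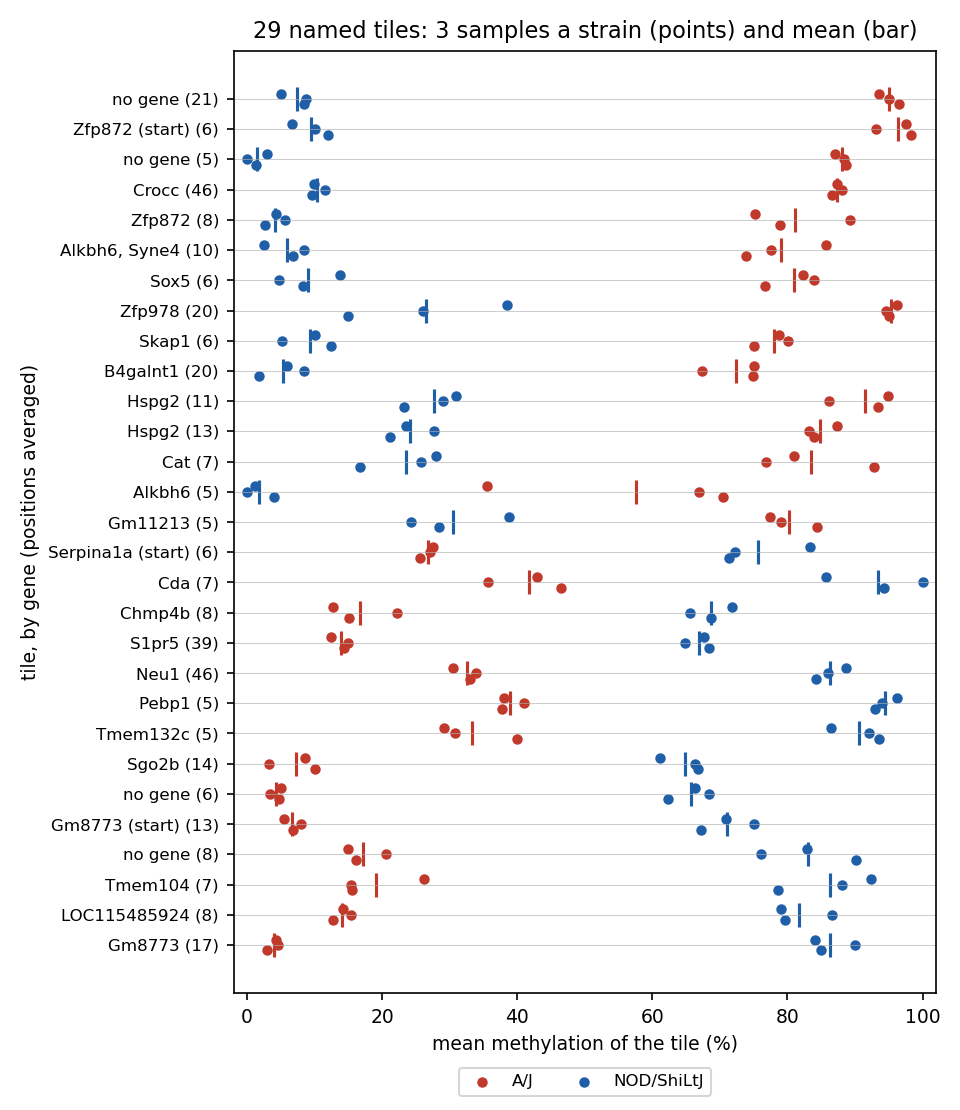
Methylation (%) of 29 tiles chosen by size of difference, with points for the 3 samples of each strain, bars for the means, and the number of positions averaged in parentheses. In the upper 15 tiles every A/J sample (red) is above every NOD/ShiLtJ sample (blue), and in the lower 14 the order is reversed.

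In the other direction, Gm8773 held the tile with the largest difference. The tile from its start into the gene, chr5:5574001-5575000, stood at 2.93, 4.54 and 4.29% in A/J and at 84.9, 89.97 and 84.0% in NOD/ShiLtJ, a difference of -82.4 points (A/J minus NOD/ShiLtJ, limma adjusted p = 0.000771). The tile before it differed by -64.3 points. NOD/ShiLtJ stood alone here, since the other 7 strains were between 3 and 22% in both tiles. In the tile that holds its start Sgo2b differed by -57.5 points (limma adjusted p = 0.00653), and the 4 other strains with a level there stood between 3 and 24%.

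Neu1, a lysosomal sialidase encoded in the class III part of the major histocompatibility region, was measured over 46 positions at chr17:34934001-34935000. It stood at 33.0, 33.9 and 30.5% in A/J and at 84.2, 86.1 and 88.7% in NOD/ShiLtJ. The strains were -53.8 points apart (limma adjusted p = 0.00288). PWK/PhJ, at 82%, was the other strain near the NOD/ShiLtJ level, and the remaining 6 stood between 26 and 32%.

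S1pr5, a receptor for the signalling lipid sphingosine 1-phosphate, was measured over 39 positions at chr9:21245001-21246000. Its levels were 14.3, 15.0 and 12.4% in A/J and 68.4, 64.9 and 67.6% in NOD/ShiLtJ. The difference was -53.1 points (limma adjusted p = 0.00257), with little spread inside either strain. Pebp1, the Raf kinase inhibitor protein, stood near its start at 37.8, 41.0 and 38.0% against 92.9, 94.0 and 96.2%, from 5 positions.

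Tmem104 and Tmem132c encode membrane proteins and differed by -67.3 and -57.3 points. The call in Tmem104 was lost without A/J replicate 1 or 2 or NOD/ShiLtJ replicate 2, at adjusted p up to 0.0665, and that in Tmem132c without A/J replicate 2, at 0.0514. Chmp4b, of the membrane-cutting ESCRT-III complex, differed by -52.0 points, and its call was lost without A/J replicate 1 or NOD/ShiLtJ replicate 1 or 3, at adjusted p up to 0.0592. Cda, cytidine deaminase, stood at 46.4, 35.7 and 42.9% against 94.3, 100 and 85.7%. With 1 sample left out its call held only without NOD/ShiLtJ replicate 3, at adjusted p from 0.0456 to 0.165. The call in Cda was also lost with an offset of 1 point in the log2 ratio. A tile in the predicted gene LOC115485924 differed by -67.7 points and was called with any sample left out.

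Serpina1a encodes an alpha-1 antitrypsin, a protease inhibitor that hepatocytes secrete in quantity, and was the hepatocyte marker with a called tile, 1 of 17 tested for these markers and 1 of 26 tested for serpins, against 0.316% over all tested tiles. One tile is too few to read as a share. The tile just upstream of its start, chr12:103864001-103865000, from 6 positions, stood at 25.7, 27.1 and 27.6% in A/J and at 71.4, 72.2 and 83.3% in NOD/ShiLtJ. NOD/ShiLtJ was higher by a wide margin, at -48.9 points (limma adjusted p = 0.0124). The call held only without NOD/ShiLtJ replicate 3, at adjusted p from 0.0340 to 0.0746 over the 6 fits. NZO/HlLtJ, at 14%, was near A/J, and 129S1/SvImJ, CAST/EiJ, DBA/2J and WSB/EiJ stood between 66 and 77%. The Serpina1 genes are near-identical copies in a cluster, so the copy that gave these reads is uncertain.

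Tiles over no gene reached similar sizes. The tile at chr17:80019001-80020000, from 21 positions, stood at 96.5, 95.03 and 93.5% in A/J and at 8.4, 8.6 and 5.0% in NOD/ShiLtJ, a difference of 87.7 points (limma adjusted p = 0.00069). WSB/EiJ, at 97%, shared the A/J level, while 129S1/SvImJ, C57BL/6J and DBA/2J stood at 3 to 5% and CAST/EiJ between, at 35.6%. In the other direction the tile at chr11:96887001-96888000 differed by -65.8 points, lost without A/J replicate 1 or 3 at adjusted p up to 0.0541, and the tile at chr6:94718001-94719000 by -61.4 points. The largest difference of all, 89.6 points, lay in Gm45609, outside the protein-coding genes, at chr2:155091001-155092000 with 95.8, 88.9 and 95.8% against 0.0, 6.6 and 5.1%, and was picked out after its value was seen.

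Most called tiles stood apart from each other. Of the 265, 13 directly followed another called tile, where 0.316% of all tested tiles were called. Each of these 13 pairs had 1 direction, and called tiles formed 252 separate runs. The 1 Mb windows with the most were chromosome 7 from 30000001 (4 of 127 tested tiles, at Alkbh6, Syne4, Nphs1 and Arhgap33os), chromosome 4 from 137000001 (4 of 128, at Hspg2 and Rap1gap) and chromosome 17 from 46000001 (4 of 131, at Ptk7, Rsph9 and Tjap1). In the last all 4 were higher in A/J. Chromosome 1 from 166000001 followed with 3 of 44, all in Ildr2 and higher in A/J. There a tile of 83 positions stood at 45.4, 44.1 and 37.0% in A/J and at 2.9, 4.0 and 2.4% in NOD/ShiLtJ. Chromosome 17 from 80000001 had 3 of 46, including a tile in Map4k3 at 60, 69.3 and 40% against 0.0% in all NOD/ShiLtJ samples.

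Genes grouped by function had few called tiles in each group, where the background share over all tested tiles was 0.316%. None was called in 134 tiles of 28 hepatocyte transcription factors, 141 tiles of genes of glucose and insulin handling, 115 of cytochrome P450 genes, 44 of conjugation enzymes, 193 of ABC transporters, 79 of methylation writers and erasers, 95 of clock genes, 163 of Hox genes or 181 of imprinted genes. The same held for 125 tiles of genes with known alleles in A/J or NOD, 49 of olfactory receptors and 41 of vomeronasal receptors. The 41 tiles of candidate genes for type 1 diabetes regions and the 40 tiles of listed histocompatibility genes had none called either, although Neu1, B3galt4 and Abhd16a, which lie among the latter but were not on that list, did. At the background share these lists would hold less than 1 called tile each, so a count of 0 does not set them apart. The background share is also not matched to a list by methylation level. Markers of macrophages, endothelial cells, stellate cells, bile duct cells and lymphocytes had no called tile in 10, 16, 25, 14 and 8 tested tiles.

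Lists with a call had 1 to 4 each. Among 152 tiles of lipid and cholesterol genes 1 was called (0.658%), in Lpin1, an enzyme of triglyceride synthesis. It stood at 91.5, 91.4 and 88.9% in A/J and at 64.2, 60 and 48.1% in NOD/ShiLtJ. Among 66 tiles of pigmentation genes 1 was called (1.52%), in the nonagouti gene a, whose product switches hair pigment between black and yellow. It stood at 46.4, 61.5 and 57.9% against 18.7, 13.8 and 20.4%, beside 3 positions listed in A/J only and 5 in NOD/ShiLtJ only. Zinc finger genes had 4 of 713 tiles called (0.561%), all higher in A/J, in Zfp704, Zfp872 (2 tiles) and Zfp978. Solute carriers had 4 of 1090 (0.367%), of which Slc2a9, a urate transporter, was higher in NOD/ShiLtJ by 32.3 points on average, its difference being -32.3. Slc37a1, a glucose 6-phosphate exchanger, was higher in A/J at 84.6 ± 3.34% against 51.3 ± 3.43% (SD, n = 3 each). One tile over 16 overlapping genes of the protocadherin gamma cluster was called among 80 (1.25%), higher in A/J. The calls in Lpin1, the nonagouti gene, Slc2a9, Slc37a1, the tile shared by B4galnt1 and Slc26a10 and the protocadherin tile were each lost with any of the 6 samples left out, with the difference at least 28.5 points in each of these fits.

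The other strains showed where each difference stood. A strain was counted as nearer to A/J or to NOD/ShiLtJ by its mean level in the called tile, over at least 5 positions listed in all its samples and in the pair, with the pair's levels taken on the same positions. DBA/2J was nearer A/J in 140 of 253 tiles with a level (55.3%), the highest share, and NZO/HlLtJ in 106 of 240 (44.2%), the lowest. The other shares were 45.04% for C57BL/6J, 45.7% for 129S1/SvImJ, 46.3% for WSB/EiJ, 50.7% for CAST/EiJ and 53.4% for PWK/PhJ. Neither strain of the pair was thus the odd one out in general. Of 159 tiles with a level in every strain, 13 had all 7 other strains nearer NOD/ShiLtJ and 13 had all 7 nearer A/J. In the other tiles the remaining strains were split.

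**Figure D4:**
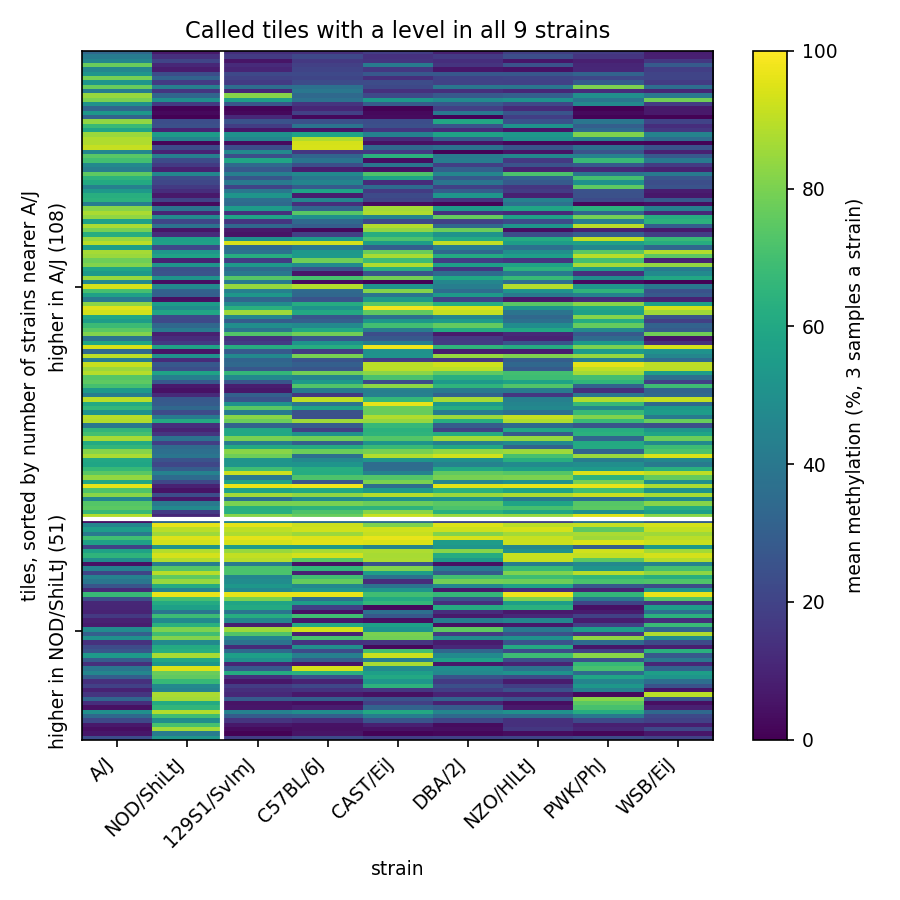
Mean methylation (%, colour) of 159 called tiles (rows) in 9 strains (columns, 3 samples each), with the 108 tiles higher in A/J above the white line and the 51 higher in NOD/ShiLtJ below it, each block ordered by how many other strains are nearer the A/J tile mean. The other 7 strains match A/J in some rows and NOD/ShiLtJ in others.

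Tested one at a time, 298 of 1124401 positions were called (0.0265%), 184 higher in A/J and 114 higher in NOD/ShiLtJ. Each differed by at least 66.6 points, and the median size was 94.3 points. In 133 of them the mean of 1 strain was near 100% and that of the other near 0%. Of the 298, 104 lay in called tiles. The number of called positions was 86 with an offset of 1 point in the log2 ratio and 1515 on the percent scale. On the smaller set of 683134 tested positions listed in all 27 samples, the fit on the 6 samples called 373. A spread shared over 27 samples called 2381 of that same set. Without A/J replicate 1 the split was 121 higher in A/J against 129 higher in NOD/ShiLtJ, and without A/J replicate 2 or 3 it was 107 against 105. Without NOD/ShiLtJ replicate 1, 2 or 3 it was 187 against 79, 136 against 74 and 160 against 66. The split thus moved with the strain that lost a sample, and the cause was not tested. A C of 1 strain that is a T in the other also reads as methylated against unmethylated. Genotypes were not used here, and the part of such positions was not tested.

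The lists of positions give a second view of the pair that does not use the percentages. A CpG that 1 strain lacks may be missing from its files, although a C that is a T there can also be listed as unmethylated. Of 2826073 positions listed in all 3 samples of at least 1 strain, 74794 were listed in no NOD/ShiLtJ sample and 74398 in no A/J sample, together 5.28%. These are called listed in 1 strain only. The same share was 6.56% for A/J against C57BL/6J and 6.79% for NOD/ShiLtJ against C57BL/6J, comparisons that share samples with this one. In the RefSeq promoter windows 15.6% of the A/J-only positions (435 of 2789) and 16.6% of the NOD/ShiLtJ-only positions (464 of 2797) did not fall on a CG of the reference, against 0.288% (807 of 279771) of positions listed in both strains. Absence from a file can also come from low depth, which the files do not give.

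Such positions were more common where tiles differed. Of the 265 called tiles 87 held at least 1 position listed in 1 strain only (32.8%), and of the 83606 tested tiles that were not called 10001 did (12.0%). As a share of positions this was 7.78% against 2.81%. Counted over 1067 autosomal windows of 2 Mb ordered by this share and divided into 5 groups of like size, the percentage of tested tiles called was 0.0794, 0.143, 0.316, 0.528 and 0.857% from the lowest to the highest group. For A/J against C57BL/6J, in the same windows, it was 0.416, 0.514, 0.555, 0.621 and 0.727%. For NOD/ShiLtJ against C57BL/6J it was 0.257, 0.339, 0.410, 0.394 and 0.694%. The 3 comparisons share samples and are given side by side as a description, and the windows were chosen after the data were seen.

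**Figure D5:**
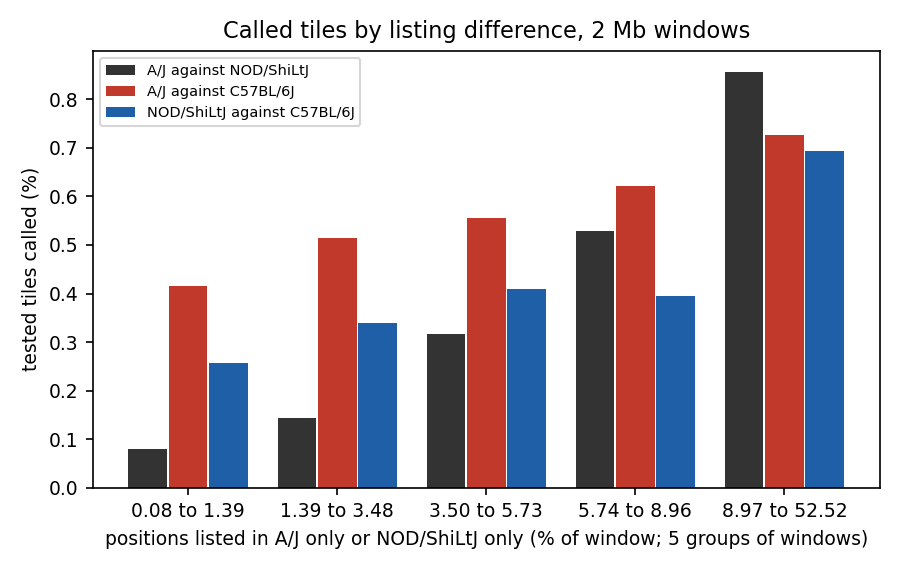
Percentage of tested tiles called (bars, from 0) in 5 groups of 1067 windows of 2 Mb, ordered by the share of positions listed in A/J only or in NOD/ShiLtJ only (horizontal axis, range of each group in %), for 3 pairs of strains that share samples. For A/J against NOD/ShiLtJ the bars go from 0.0794 to 0.857%, for A/J against C57BL/6J from 0.416 to 0.727% and for NOD/ShiLtJ against C57BL/6J from 0.257 to 0.694%.

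Large parts of the chromosomes held no called tile. Stretches of at least 10 Mb between called tiles or the outermost tested tiles numbered 73, with a total of 2035 Mb, 79.2% of the span tested on the autosomes and X, and contained 55452 tested tiles. The shortest counted was 10.183 Mb and the longest left out 9.892 Mb. The longest was X from 38950001 to 168508000 (129.6 Mb, 2060 tested tiles). It was followed by chromosome 2 from 27583001 to 103476000 (75.9 Mb), chromosome 1 from 58323001 to 127397000 (69.1 Mb), chromosome 3 from 9975001 to 65871000 (55.9 Mb), chromosome 12 from 33022001 to 87101000 (54.1 Mb) and chromosome 10 from 68094001 to 119648000 (51.6 Mb). With so few tiles called, long gaps occur wherever calls are sparse. Leaving out any 1 sample gave fewer such stretches, but also just 59 to 90 called tiles, and fewer calls join neighbouring stretches. A lower number of stretches thus does not mean a smaller span without a call. The stretches were not free of differences. Inside them 163 tiles (0.294%) differed by at least 25 points with no overlap between the strains, against 0.653% over all tested tiles and 385 of 28408 tiles outside the stretches, and just 9 stretches had no such tile. All 265 called tiles meet that rule and lie outside the stretches by definition, so part of the lower share inside is set by how the stretches were chosen.

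Inside these stretches the strains still differed from C57BL/6J. A/J against C57BL/6J had 221 of 54093 tiles called there (0.409%, against 0.529% over all tiles) and NOD/ShiLtJ against C57BL/6J 133 of 53028 (0.251%, against 0.375%), and 64 and 50 of the 73 stretches held such a call. The share of positions listed in 1 strain of the pair only was 4.63% inside and 6.53% outside on the autosomes. It ranged from 1.46 to 13.2% over the stretches. A stretch without a called tile was therefore not in general one where the lists of positions were alike.

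Runs of neighbouring 2 Mb windows in the lowest of these 5 groups mark regions by the lists alone. Of 12 runs of 8 Mb or more, 116 Mb in all, 8 had no called tile, and 5 of 6346 tested tiles were called (0.0788%). In the same runs A/J against C57BL/6J had 24 of 5987 tiles called (0.401%) and NOD/ShiLtJ against C57BL/6J 11 of 5918 (0.186%). The longest, chromosome 10 from 76000001 to 96000000, had 0.674% of positions listed in 1 strain only and 0 of 1269 tiles called. Against C57BL/6J the shares of positions there were 3.93% for A/J and 3.83% for NOD/ShiLtJ, with 5 and 1 tiles called. The runs were chosen for a low share between the pair, from 0.610 to 0.993% over the 12, so that side is fixed by the choice. Against C57BL/6J the shares in the same runs ranged widely, from 1.13 to 9.99% for A/J and from 0.848 to 10.2% for NOD/ShiLtJ. The widest gap was on chromosome 9 from 102000001 to 112000000, with 0.764% between the pair and 9.99 and 10.2% against C57BL/6J. On chromosome 16 from 16000001 to 24000000 the pair's 0.993% lay between 1.16% for A/J and 0.848% for NOD/ShiLtJ.

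Tyr, at chr7:87424771-87493512, lay in a stretch of 19.756 Mb without a called tile. Within 1 Mb of Tyr 2.21% of positions were listed in 1 strain only, against 9.81% for A/J and 9.32% for NOD/ShiLtJ compared with C57BL/6J, which is pigmented, and 0 of 16 tested tiles were called. Hc, the complement C5 gene, for which both A/J and NOD strains are known to carry the deficient allele, lay in the 75.9 Mb stretch of chromosome 2. There the shares within 1 Mb were 0.732% between the pair and 2.13 and 2.15% against C57BL/6J, and 0 of 130 tiles were called. Around Il2, a candidate gene for diabetes in NOD mice, the shares were 6.57% between the pair and 21.3 and 21.0% against C57BL/6J, with 0 of 67 tiles called. At the share of 0.316% over all tiles, fewer than 1 called tile would fall in the tiles around Tyr, Hc or Il2. The share between the pair was also below both shares against C57BL/6J around Dysf, the gene of the membrane repair protein dysferlin (0.642%, against 3.5 and 3.4%), and around Naip5, which encodes a sensor of bacterial flagellin (2.86%, against 6.69 and 6.95%). It was not below both around Ctla4, Slc11a1 and Cdh23. Around Ctla4, likewise a diabetes candidate, the shares were 5.15% between the pair, 0.754% for A/J and 5.59% for NOD/ShiLtJ against C57BL/6J. Around Slc11a1 they were 3.70, 3.50 and 3.92%, and around Cdh23 0.631, 0.853 and 0.588%.

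In the major histocompatibility region the share between the pair was slightly below both shares against C57BL/6J near H2-K1 and further below them near H2-D1. Within 1 Mb of H2-K1 11.0% of positions were listed in 1 strain only, against 11.3 and 12.2% for the pairs with C57BL/6J, and 2 of 153 tested tiles were called. Within 1 Mb of H2-D1 the shares were 8.40%, 11.0% and 11.1%, and 2 of 233 tiles were called. The regions around H2-K1 and H2-D1 overlap, and the Neu1 tile is counted in both. These counts stand against 0.316% over all tiles, with no test made. The called tiles here were those of B3galt4 (40.9 points higher in A/J), Neu1 (-53.8 points) and Abhd16a, a lipase, whose tile stood at 12.4, 11.5 and 12.3% in A/J and at 43.4, 44.5 and 47.8% in NOD/ShiLtJ. The call in Abhd16a held only without NOD/ShiLtJ replicate 2, at limma adjusted p from 0.0478 to 0.0600 over the 6 fits. Chromosome 17 as a whole had 7.22% of positions listed in 1 strain only, against 5.27% over the autosomes. Chromosome 12 had a higher share of such positions, 7.78%, with 0.340% of its tiles called, against 0.677% on chromosome 17.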

How the data were processed

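RRBS libraries were made from DNA of 27 samples with MspI digestion and bisulfite conversion, per the labels' protocols. Reads were trimmed with Trim Galore 0.6.3 and aligned with Bowtie2 and Bismark 0.22 to GRCm38 (mm10), as far as the submitters' processing notes name tools and builds, without their order. The deposited files give chromosome, start, stop and percent methylation, per the file headers, with no read counts. The rule by which the authors listed a position is not given in the sources used here. Groups were taken from the strain label.

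From these percentages, positions listed in all 6 samples were averaged in 1 kb tiles (5 or more positions) and tested with limma 3.58.1 in R 4.3.3 on log2((percent + 5) / (100 - percent + 5)), fitted on the 6 samples, with Benjamini-Hochberg adjustment over all tested tiles. Features with a mean within 2.5 points of 0 or 100 were left out. Called means adjusted p under 0.05 and 25 points. The fit was also run on simulated tiles whose noise was drawn from the fitted spread itself, so it could not check the effect of read depth. Single values were compared by exact permutation. Genes, starts and sequences came from RefSeq (GRCm38.p6), and exons and introns were not used here. Chromosome Y, with 11 tested tiles, was left out of the stretches.

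Named tiles were the 10 largest differences each way in protein-coding genes, the 5 each way within 1 kb of starts, the 3 each way over no gene, the 5 fullest 1 Mb windows, the 6 longest stretches, and list members with a call. The members and lists were chosen with earlier results of these data known. Alternatives covered the offset, scale, filters, tile limits, strand averaging, shared spread, replicate block and each sample left out. After the data were seen, alignment of sample medians, stretches limited by unadjusted differences, the 2 Mb windows and the reference check were added.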

Additional observations from a re-analysis of the deposited data

How the results depend on the processing

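Of 390 alternative values no difference changed sign, 301 kept their side of the threshold or stayed within 1.5 times, and of 314 values for the named tiles 67 lost their call. Against 265 called tiles, an offset of 1 point gave 147, 10 positions per tile 174, a minimum difference of 10 points 412 and of 50 points 55. Without the ribosomal RNA repeat 262 were called. Leaving out 1 sample gave 59 to 90. Alignment of sample medians gave 263 tiles, 62.7% higher in A/J. Against 298 called positions, an offset of 1 point gave 86 and the percent scale 1515. Positions listed in all 27 samples gave 373 with the fit on the 6 samples and 2381 with a spread shared over 27 samples. Leaving out 1 sample gave 210 to 266 positions, of which 48.4% (without A/J replicate 1) to 70.8% (without NOD/ShiLtJ replicate 3) were higher in A/J, so the majority among called positions turned in 1 of these fits. Against 73 long stretches, a minimum of 20 Mb gave 40, and leaving out 1 sample 46 to 53, where fewer calls also join neighbouring stretches. Stretches limited by unadjusted differences numbered 76 and covered 58.7% of the span. Requiring a listing in only 2 or more samples gave 7.79% of positions in 1 strain only inside the stretches, against 4.63%, and 9.69% outside them, against 6.53%. Deviations of same-numbered samples correlated at 0.00057 to 0.0022 across tiles, so no pairing by replicate number showed over all tiles. A batch that acts on part of the tiles, or that does not follow the number, was not tested. With the replicate block in limma 4 tiles, 0 positions (53603 at an unadjusted p under 0.05) and 23 long stretches were called, and the mean difference stayed 0.632 points. The cause of these changes was not tested, beyond the smaller number of samples or residual degrees of freedom by construction. Depth is unknown, so a percentage from few reads could not be told from one of many.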
